A study of Mus musculus with 4 samples.

Results

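Zbtb20, Nfia, Nfib, Nfic and Nfix are 5 of the 43348 genes in single-cell RNA counts of mouse interneurons and of the other cells sorted with them. They were chosen by symbol, as transcription factors with regional roles in the forebrain, and each symbol matched 1 gene. ZBTB20 is a zinc-finger repressor of the BTB family that is needed for hippocampal pyramidal cells to take on their identity and for astrocytes to form. NFIA, NFIB, NFIC and NFIX are the nuclear factor I proteins, which bind the palindrome of TTGGC and GCCAA as dimers. NFIA, NFIB and NFIX are known for roles in the switch from neurons to glia and in the growth of the hippocampus.

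The study asked what loss of Grin1, which encodes the obligatory subunit of the NMDA receptor, does to interneurons that arise in the medial ganglionic eminence. TdTomato-positive cells were sorted from acute slices of frontal cortex and of hippocampus of juvenile mice, postnatal day 18 to 20, and profiled with 10x Genomics 3′ chemistry. The null mice were Nkx2-1-Cre:Grin1fl/fl:Ai14, and the WT mice were littermates with Grin1 wt/wt that carried the same Nkx2-1-Cre and the Ai14 reporter, so Cre and TdTomato were present in every group. There were 3 WT and 2 null libraries from each region, made from several mice of each genotype, and both sexes were used. Tetrodotoxin, APV and actinomycin D were in the buffers from slice recovery and microdissection through dissociation. Beside interneurons the sorted cells held oligodendrocytes, astrocytes and other cells.

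A library is the unit of replication throughout, named by genotype, region and replicate number. The kept cells held 9306756, 14050536 and 27341723 UMIs (unique molecules counted) in WT cortex 1, 2 and 3. WT hippocampus 1, 2 and 3 held 10551025, 8781135 and 20438462. The null cortex libraries held 1452379 and 24668652 and the null hippocampus libraries 3851048 and 43644831. Libraries of replicate 1 were made with version 2 of the chemistry and the others with version 3. WT hippocampus 2 stood apart, with a median of 1479 UMIs per cell against 5752 in WT hippocampus 3. At most 12 cell barcodes were shared by any 2 libraries.

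Grin1 gave a check of the genotype labels. In the interneuron clusters it was at 145, 238 and 214 CPM (UMIs of a gene in a sum over cells, scaled to a common total) in WT cortex and at 117, 159 and 143 CPM in WT hippocampus. In null cortex it was at 36.5 and 27.3 CPM and in null hippocampus at 25.4 and 18.8 CPM. Every null library lay below every WT library, and where the 3′ tag lies relative to the deleted part of the gene was not tested.

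On the mouse build GRCm38 (mm10), Zbtb20 (ENSMUSG00000022708.12) spans chromosome 16 from 42875881 to 43642602 on the plus strand. Nfia (ENSMUSG00000028565.14) lies on chromosome 4 from 97772734 to 98118874, also on the plus strand. Nfib (ENSMUSG00000008575.13) lies on the same chromosome from 82290173 to 82705750 on the minus strand. Nfic (ENSMUSG00000055053.13) occupies chromosome 10 from 81396186 to 81455635 on the minus strand, and Nfix (ENSMUSG00000001911.12) chromosome 8 from 84699876 to 84800344 on the minus strand. No protein-coding gene of the same strand overlaps a member or its extension by 4 kb, while noncoding genes of the same strand overlap Zbtb20 (5), Nfib (1) and Nfic (1).

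All 5 members were expressed. Zbtb20 was the most often seen, with 20712 UMIs in 35.7% of the 26201 kept cells. Nfib had 18626 UMIs in 26.4% of cells and Nfix 14926 in 27.1%. Nfic had 9214 UMIs in 25.6% and Nfia 7448 in 19.1%. The 3′ tags of different genes are not comparable in length or capture, so levels are compared below within a gene, between cell classes or libraries.

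**Figure D1:**
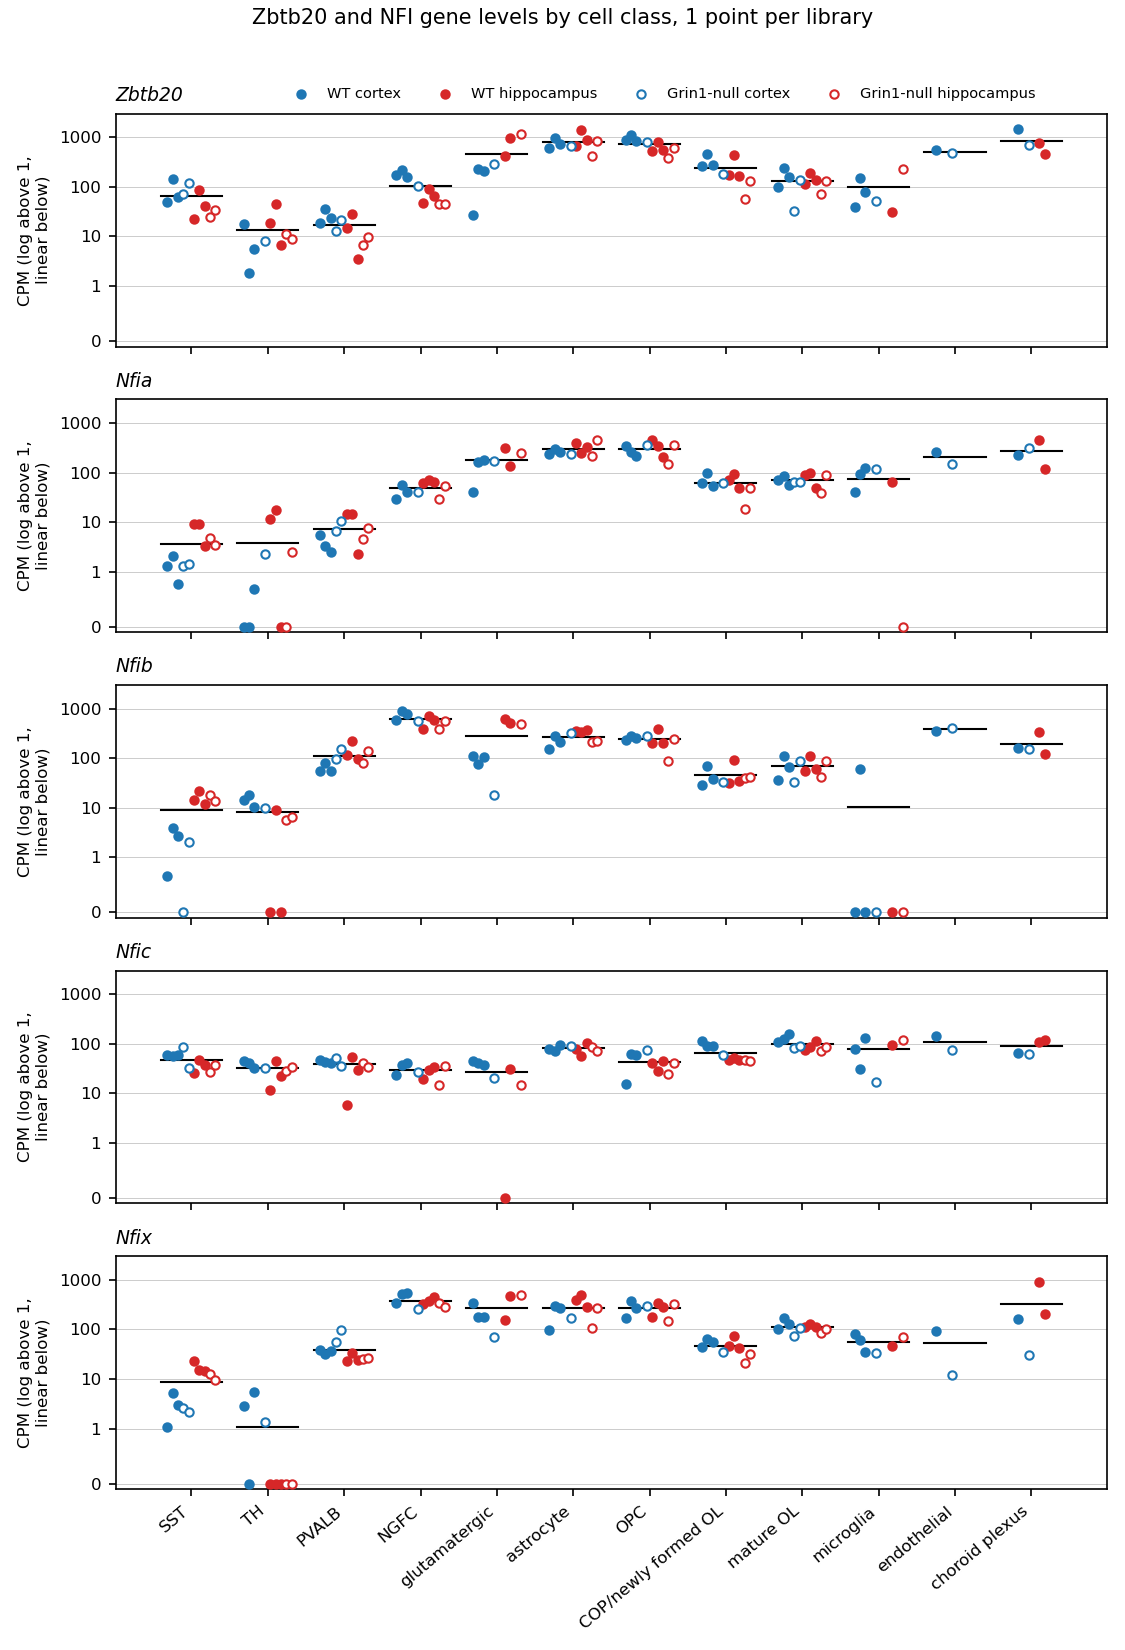
CPM of each member in 12 cell classes, on an axis that is logarithmic above 1 CPM and linear below. Each point is a library with at least 10 cells of the class, filled for WT and open for null, blue for cortex and red for hippocampus, and each bar is the mean over libraries. Nfia, Nfib and Nfix differ most between classes, with Nfib from a mean of 610 CPM in NGFC to 8.27 CPM in TH cells, while Nfic stays between 27.0 and 110 CPM.

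Zbtb20 had higher means in choroid plexus and in most glial classes than in interneurons, with microglia below the highest interneuron class. Its mean over libraries was 853 ± 434 CPM (SD, n = 4) in choroid plexus, 804 ± 270 CPM (n = 9) in astrocytes and 728 ± 221 CPM (n = 9) in oligodendrocyte precursors (OPC). Endothelial cells followed at 510 ± 47.3 CPM (n = 2), glutamatergic neurons at 471 ± 428 CPM (n = 7) and committed and newly formed oligodendrocytes at 241 ± 139 CPM (n = 9). Mature oligodendrocytes were at 132 ± 58.3 CPM (n = 10) and microglia at 98.2 ± 80.0 CPM (n = 6). The TH class was 1 cluster, with 2 PVALB markers and 1 TH marker among its 10 leading genes, so its name is uncertain. Among interneurons the order was neurogliaform cells (NGFC) at 106 ± 64.1 CPM (n = 9), somatostatin (SST) cells at 65.5 ± 40.6 CPM (n = 10), parvalbumin (PVALB) cells at 17.3 ± 9.86 CPM (n = 10) and TH cells at 13.8 ± 12.8 CPM (n = 9). No neighbours in this order differed by more than their spread, and classes were formed from the same cells, so the orders of all members are descriptions without a test.

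Nfia, which acts early in gliogenesis and in astrocyte formation, shared the glial end of that order. Among the named classes it was highest in OPC, at 301 ± 97.5 CPM (n = 9), and in astrocytes, at 297 ± 81.5 CPM (n = 9). Choroid plexus (275 CPM), endothelial cells (206 CPM) and glutamatergic neurons (176 CPM) followed. Microglia (72.8 CPM), mature oligodendrocytes (70.3 CPM), committed and newly formed oligodendrocytes (61.8 CPM) and NGFC (49.4 ± 14.99 CPM, n = 9) came next. The step below NGFC was larger than the spread, to 7.15 CPM in PVALB cells, 3.86 CPM in TH cells and 3.64 CPM in SST cells. Nfia therefore split the interneurons, with NGFC on the side of the glia.

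Among the named classes Nfib and Nfix, known for their part in hippocampal and cerebellar development, were highest in NGFC, the Lamp5 and Hapln1 interneurons. For Nfib this was 610 ± 171 CPM (n = 9) in NGFC, a step larger than the spread above the 387 ± 40.8 CPM (n = 2) of endothelial cells. Glutamatergic neurons (276 CPM), astrocytes (273 CPM), OPC (242 CPM) and choroid plexus (193 CPM) came between these and PVALB cells, which had 110 ± 50.7 CPM (n = 10). Nfib was at 69.1 CPM in mature and 45.3 CPM in committed and newly formed oligodendrocytes, and at 8.83 CPM in SST cells and 8.27 CPM in TH cells. Microglia had 10.2 ± 24.95 CPM (n = 6), which came from 2 UMIs of WT cortex 2, with 0 in the other 5 libraries. Among interneurons Nfib thus ran from NGFC to PVALB cells and then to SST and TH cells.

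Nfix had 383 ± 97.6 CPM (n = 9) in NGFC, then 322 ± 384 CPM (n = 4) in choroid plexus, where WT hippocampus 2 was at 888 CPM and the other 3 libraries between 31.1 and 205 CPM. It had 270 CPM in glutamatergic neurons, 268 CPM in astrocytes and 265 ± 82.5 CPM (n = 9) in OPC. The steps from OPC to mature oligodendrocytes (113 ± 27.3 CPM, n = 10) and from these to microglia (54.7 CPM) were larger than the spread. Endothelial cells (52.5 CPM), committed and newly formed oligodendrocytes (46.0 CPM) and PVALB cells (39.3 ± 22.9 CPM, n = 10) followed. SST cells (8.87 CPM) and TH cells (1.09 CPM) lay below PVALB cells by more than the spread. Nfic, the most evenly expressed member, ran from 110 CPM in endothelial cells to 27.0 CPM in glutamatergic neurons, with SST cells at 46.9 CPM, PVALB cells at 38.3 CPM and NGFC at 29.3 CPM, and no neighbours in its order differed beyond their spread.

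Over 21 sums of WT cells, 1 for each class and region with at least 50 cells, the members' patterns were compared with those of 9801 genes by Pearson's r of the log2 level. These sums share libraries, and genes are not independent, so r is a description. Zbtb20 was most like Nhsl1 (r = 0.88), Hmgn5 (0.85) and Mettl23 (0.85), and among the members most like Nfia (0.84). Nfia was most like Usp1 (0.87), Mxd4 (0.87) and H3f3a (0.85). For Nfib the nearest were Crim1 (0.91), Nfix (0.83) and Mpdz (0.78), and for Nfix they were Nfib (0.83), Nfia (0.83) and Mettl23 (0.80). Nfic stood apart from the rest, nearest to Tmem59 (0.92), Glmp (0.90) and Tmed10 (0.88) and with r = -0.05 against Nfib.

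The first comparison asked how the members differed between hippocampus and cortex within SST interneurons of WT mice. In the SST class Nfib was at 0.655, 3.95 and 2.72 CPM in WT cortex 1, 2 and 3 and at 14.4, 21.3 and 11.8 CPM in WT hippocampus 1, 2 and 3. Nfix was at 1.09, 5.15 and 2.96 CPM in cortex and at 23.3, 14.9 and 14.8 CPM in hippocampus. Nfia was at 1.31, 2.06 and 0.778 CPM in cortex and at 8.97, 9.04 and 3.29 CPM in hippocampus. For each of these genes every hippocampal library lay above every cortical one.

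These levels were low for nuclear factor I genes and rested on few molecules, for Nfia on 6, 12 and 10 UMIs in the cortical and 15, 14 and 10 UMIs in the hippocampal libraries. Nfic went the other way, with 60.3, 57.1 and 58.3 CPM in cortex and 25.7, 47.1 and 36.8 CPM in hippocampus. Zbtb20 was at 49.8, 143 and 64.0 CPM in cortex and at 22.1, 86.5 and 41.1 CPM in hippocampus. The regions overlapped in Zbtb20, and within each replicate number the hippocampal library was below the cortical one. Cluster 23, with 414 cells, held 6 of 9 SST markers but was led by Oxt and stayed unnamed, outside the class and untested. Over its cells Nfib was at 85.9 CPM and Nfix at 69.0 CPM. In WT cortex Nfib was at 21.9, 14.2 and 39.5 CPM and Nfix at 21.9, 28.4 and 64.9 CPM, and in WT hippocampus 1 (11 cells) and 3 (81 cells) Nfib was at 88.7 and 155 CPM and Nfix at 118 and 165 CPM.

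A gene was called when edgeR gave an adjusted p under 0.01 over all genes tested and the change was 0.1 or more on the natural-log scale. TH cells were summed with SST cells for this test, as in the study. Among the 10 leading genes of the TH cluster, 2 were PVALB markers and 1 was a TH marker, so results are also given without it. With TH cells, edgeR called 0 of the 5 members, against 0.0417% of the 11981 genes tested, although 4 members (906 of all genes) had an unadjusted p under 0.05, and DESeq2 called 2 members, Nfib and Nfix, against 1.28% of all genes. Without TH cells edgeR also called 0 members, against 0.0774% of 11627 genes.

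The hippocampus-minus-cortex log2 change was 2.57 for Nfib without TH cells (SE 0.52, edgeR adjusted p = 0.0781) and 1.86 with them (SE 0.40, adjusted p = 0.127). In TH cells alone Nfib, which was not tested there, was at 14.6, 18.4 and 10.3 CPM in WT cortex and at 0, 8.93 and 0 CPM in WT hippocampus. For Nfix it was 2.43 (SE 0.47, adjusted p = 0.0714) and 2.23 (SE 0.43, adjusted p = 0.0898), and for Nfia 2.30 (SE 0.57, adjusted p = 0.146) and 2.44 (SE 0.60, adjusted p = 0.168). Nfic had log2 changes of -0.74 and -0.75 (adjusted p = 0.412 and 0.484 by edgeR) and Zbtb20 of -0.83 and -0.78 (adjusted p = 0.866 and 0.951). In these edgeR fits without replicate pairing no member passed, and the largest changes among members were those of Nfib, Nfix and Nfia. Without the filter on low counts edgeR called Nfib and Nfix, against 0.783% of all genes.

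WT libraries with the same replicate number deviated from their regional means in the same way, so the fit was repeated with a replicate block. It called 3 of the 5 members with TH cells, against 2.59% of all genes, and 3 without them, against 2.66%. Nfib (log2 change 1.82, SE 0.29, edgeR adjusted p = 0.00195), Nfix (2.22, SE 0.36, adjusted p = 0.00237) and Nfia (2.32, SE 0.41, adjusted p = 0.00421) rose from cortex to hippocampus in this fit with TH cells. Without TH cells the adjusted p were 0.000951 for Nfib, 0.00257 for Nfix and 0.00602 for Nfia. Zbtb20 (log2 change -0.84, adjusted p = 0.0198) and Nfic (-0.78, adjusted p = 0.0672) did not pass with the block.

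With the block and a library left out, Nfib and Nfix were called in all 6 cases, where the lone sample of a replicate number adds nothing to the regional difference. Nfia lost its call without WT cortex 1 (edgeR adjusted p = 0.0283) or WT hippocampus 1 (0.0579). All 5 members were called without WT cortex 2 or without WT hippocampus 2, fits in which 6.68% and 6.54% of all genes were called. Zbtb20 then had adjusted p of 0.000143 and 0.000107, and Nfic of 1.92e-05 and 1.73e-05.

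The share of SST cells with at least 1 UMI gave the same order for Nfib and Nfix at equal depth. With every cell thinned to 1000 UMIs, and cells under that depth left out (5 and 11 in WT cortex 2 and 3, and 9 in WT hippocampus 2), Nfib was seen in a mean of 1.63% of hippocampal and 0.145% of cortical SST cells without TH, and Nfix in 2.18% and 0.249%. With all UMIs the shares were 6.29% and 1.15% for Nfib and 7.499% and 1.57% for Nfix, at median depths of 6099, 2844 and 11808 UMIs in the hippocampal and 8270, 5213.5 and 8958 UMIs in the cortical libraries. Regions did not overlap in these shares, and p was 0.1 in a two-sided exact permutation test over 3 and 3 libraries, the smallest that it allows. Nfia was seen in 0.354% and 0.196% of thinned cells (p = 0.5, exact permutation test), with overlapping regions.

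Microglia were read for comparison. Thinned to 1000 UMIs, 0% of them had an Nfib UMI in each of the 5 libraries with at least 10 such cells, of which WT cortex 3 had 50 and WT hippocampus 3 had 34. With all UMIs 2.70% of the 37 microglia of WT cortex 2 (median 754 UMIs) and 0% of the 104 of WT cortex 3 (median 987 UMIs) had one. These cells were too few and too shallow to place the Nfib shares of SST cells above or within background.

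Markers of other cells were also higher in hippocampus in the SST class. The 7 mature oligodendrocyte markers, led by Mobp, summed to 137, 174 and 78.7 CPM in cortex and 556, 513 and 315 CPM in hippocampus. The 7 NGFC markers, led by Hapln1, summed to 55.7, 54.7 and 71.0 CPM and to 123, 243 and 171 CPM. The 7 astrocyte markers, led by Slc1a2, summed to 40.6, 48.2 and 44.5 CPM and to 80.1, 146 and 97.7 CPM. The 4 OPC markers summed to 11.8, 21.6 and 30.9 CPM and to 52.6, 72.9 and 56.2 CPM, and the 4 of committed precursors to 52.0, 70.9 and 84.97 CPM and to 87.3, 210 and 142 CPM. Each of these lists was higher in every hippocampal than in every cortical library.

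Defining markers of NGFC, mature oligodendrocytes and committed precursors followed the same order. Lamp5 was at 0.218, 0.172 and 0.467 CPM in the cortical and 2.99, 5.81 and 1.32 CPM in the hippocampal SST libraries, from 1 to 9 UMIs in each. Mog was at 29.3, 48.0 and 19.8 CPM in cortex and at 103, 82.0 and 53.6 CPM in hippocampus. Gpr17, of committed precursors, was at 0.874, 1.54 and 3.58 CPM and at 8.37, 17.4 and 12.8 CPM. All 3 were higher in every hippocampal library, as Nfib, Nfix and Nfia were, while Aqp4 had 0, 2 and 3 UMIs in cortex and 0, 5 and 1 UMIs in hippocampus. Pdgfra, of OPC, overlapped between regions, with 1, 2 and 19 UMIs in cortex and 4, 8 and 0 UMIs in hippocampus. Enpp6, of newly formed oligodendrocytes, also overlapped, at 1.97, 1.20 and 2.65 CPM and at 1.79, 12.9 and 4.61 CPM. Ttr, of choroid plexus, had 859 UMIs in WT hippocampus 3 and at most 3 in the other WT SST libraries.

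As a rough size of such RNA, the Lamp5, Mog, Pdgfra and Aqp4 UMIs of WT SST cells were multiplied by each member's ratio to that marker in NGFC, mature oligodendrocytes, OPC and astrocytes of the same library. For Nfib this gave 29.6 of 61 UMIs in cortex and 49.5 of 93 UMIs in hippocampus. For Nfix it gave 35.0 of 73 UMIs and 40.9 of 107 UMIs, and for Nfia 15.8 of 28 UMIs and 20.7 of 39 UMIs. In WT hippocampus 2 it gave 36.1 UMIs against 33 seen for Nfib, 26.1 against 23 for Nfix and 12.8 against 14 for Nfia. In WT hippocampus 1 and 3 it gave 7.49 of 24 and 5.88 of 36 UMIs for Nfib. For Nfix these were 8.34 of 39 and 6.46 of 45 UMIs, and for Nfia 5.91 of 15 and 2.01 of 10 UMIs. Most of the hippocampal estimate thus came from WT hippocampus 2. The estimate rests on 1 to 9 UMIs of Lamp5 in each library and leaves out committed precursors, and the part of other cells in the regional difference was not tested.

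Within the SST class the pattern was seen in cluster 0, its largest cluster, with 1722 cells led by Cbln4, Olfm3 and Aga and also by Elfn1 and Calb1. This cluster was singled out after its values were seen. Nfib was at 0, 3.35 and 2.104 CPM in WT cortex and at 27.0, 29.9 and 32.1 CPM in WT hippocampus. Nfix was at 1.45, 6.15 and 0.301 CPM in cortex and at 39.3, 17.5 and 29.8 CPM in hippocampus. Zbtb20 was at 157, 191 and 157 CPM in cortex and at 27.0, 97.0 and 80.1 CPM in hippocampus. The regions overlapped in none of these 3 genes, and Zbtb20 ran opposite to the nuclear factor I pair.

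Without a block edgeR called 1 member in cluster 0, against 0.615% of 8621 genes, namely Nfib (log2 change 3.66, SE 0.47, adjusted p = 0.005), which rose. Nfix had a log2 change of 3.47 (SE 0.71, adjusted p = 0.0379) and Zbtb20 of -1.34 (SE 0.40, adjusted p = 0.186). The Nfib call was lost without WT cortex 2 (adjusted p = 0.0337), WT cortex 3 (0.0654), WT hippocampus 1 (0.01002) or WT hippocampus 3 (0.0418). Nfia did not pass the filter on low counts there, and its levels were 1.45, 4.47 and 0.301 CPM in cortex and 12.3, 11.4 and 6.87 CPM in hippocampus.

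With the replicate block edgeR called 3 members in cluster 0, against 2.76% of all genes. Nfib (log2 change 3.71, SE 0.44, adjusted p = 0.000286) and Nfix (3.41, SE 0.61, adjusted p = 0.00524) rose, and Zbtb20 fell (log2 change -1.42, SE 0.28, adjusted p = 0.00976). Nfic did not pass (log2 change -1.001, adjusted p = 0.0771) but did, as a fall, without WT cortex 2 (0.00497) or WT hippocampus 2 (8.82e-06). The Nfib call was lost without WT cortex 3 (adjusted p = 0.0102). The Nfix call was lost without WT cortex 1 (0.0621), WT cortex 3 (0.0583), WT hippocampus 1 (0.0529) or WT hippocampus 3 (0.0470), and the Zbtb20 call without the same libraries (0.0944, 0.0422, 0.0950 and 0.0405).

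In the other SST clusters the pattern was less clear or could not be tested. Cluster 22, the Chodl and Nos1 cells known for long-range projections, had the highest Zbtb20 of the class, 229 CPM over 415 cells, with 2.87 CPM of Nfib and 1.28 CPM of Nfix. Clusters 5, 7 and 26 had 9.86, 13.3 and 5.63 CPM of Zbtb20, and in cluster 7 the Zbtb20 change was 1.01 (SE 0.40, edgeR adjusted p = 0.801), opposite in sign to that of cluster 0. Nfib and Nfix did not pass the filter on low counts in clusters 5 and 7 and were not tested there. Nfix in cluster 5 was at 0, 3.48 and 4.81 CPM in WT cortex and at 60.8, 14.6 and 8.69 CPM in WT hippocampus, and Nfib in cluster 7 at 1.24, 3.94 and 0.931 CPM and at 2.53, 6.95 and 3.27 CPM. These values were higher in the hippocampal library of every replicate number, while Nfib in cluster 5 was lower in hippocampus in replicate 3 (5.05 CPM in cortex and 4.34 CPM in hippocampus) and Nfix in cluster 7 in replicate 2 (11.02 and 6.95 CPM). The cluster 5 values of replicate 1 came from only 16 cells in WT cortex and 10 cells in WT hippocampus. Cluster 0 made up 13.2%, 26.6% and 22.2% of SST and TH cells in WT cortex and 45.4%, 56.5% and 24.8% in WT hippocampus, and the share of cluster composition in the difference over the whole class was not separated from the change within cluster 0.

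**Figure D2:**
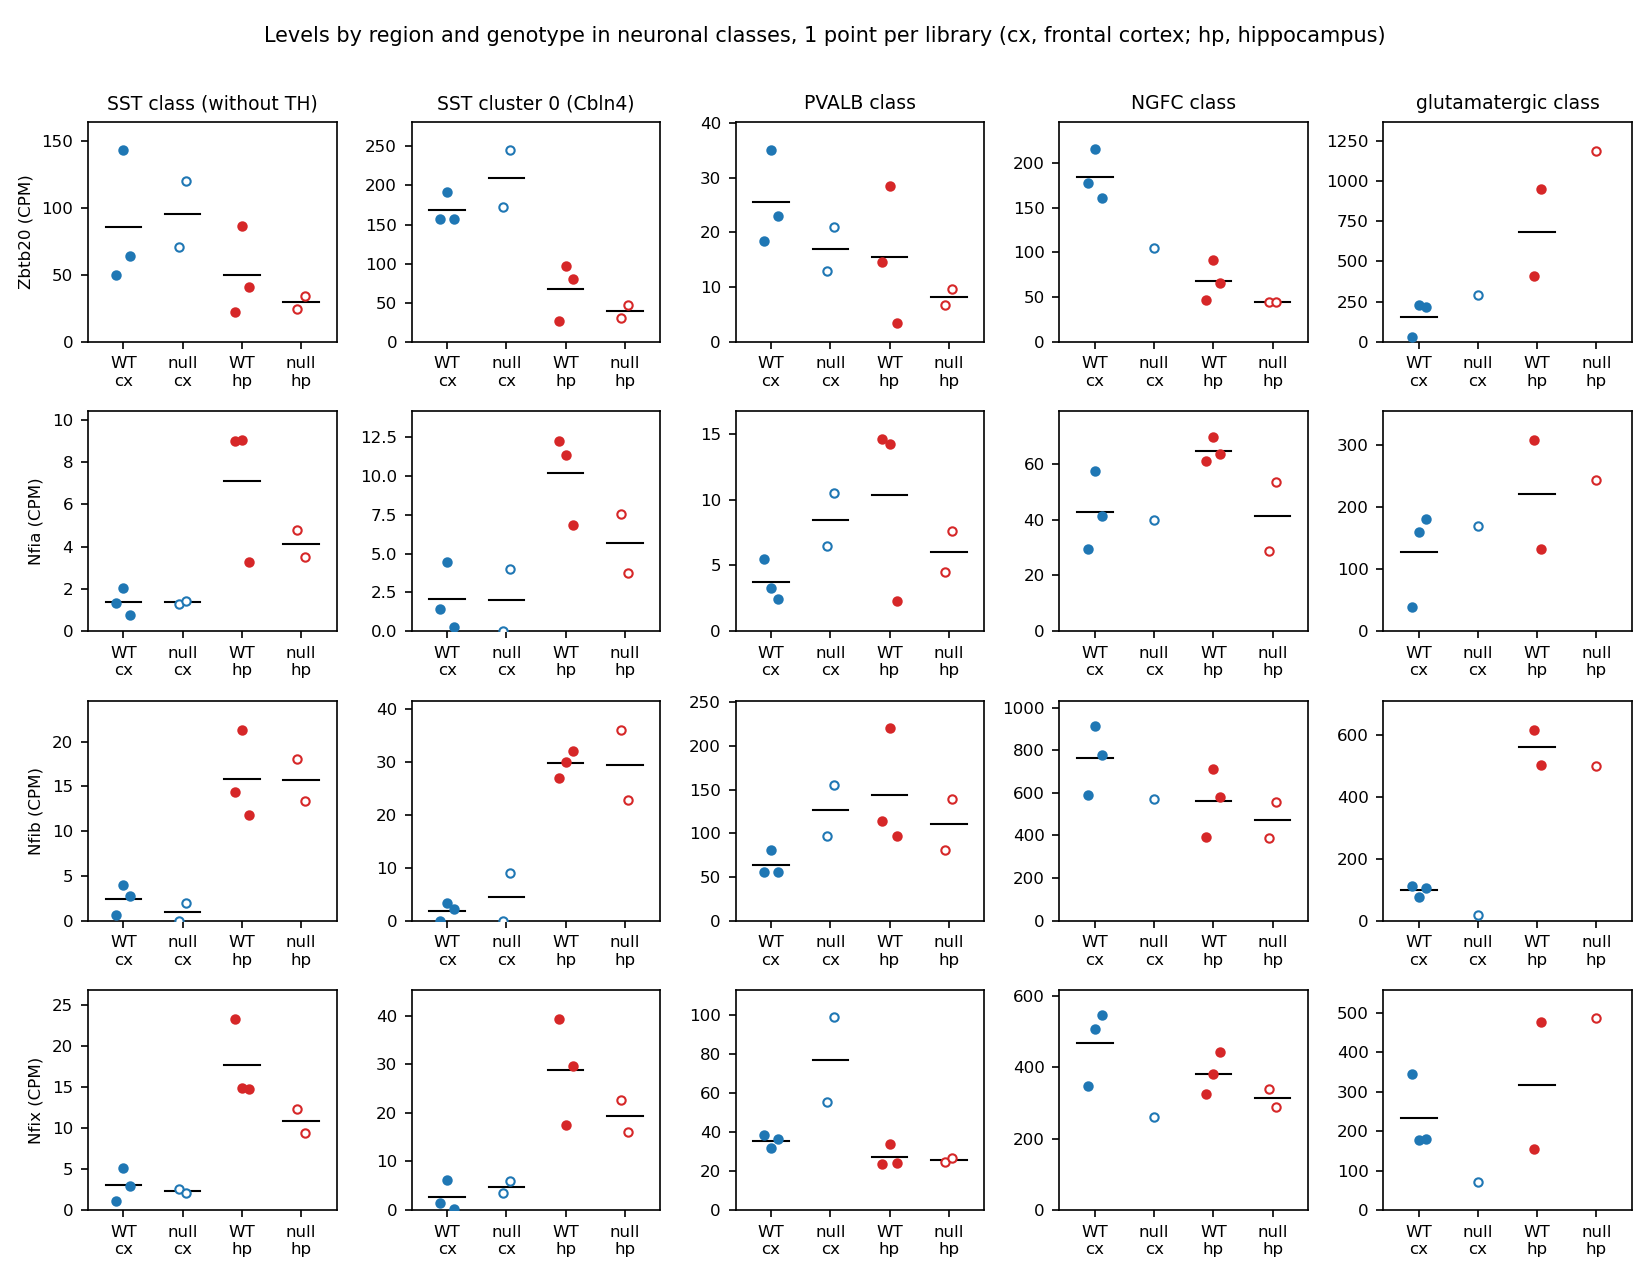
CPM of Zbtb20, Nfia, Nfib and Nfix, by row, in 5 groups of neurons, by column, each panel with its own linear axis from 0. Each point is a library (cx, frontal cortex; hp, hippocampus), filled for WT and open for null, and bars are group means. In SST cluster 0 Nfib lies at 27.0 to 32.1 CPM in WT hippocampus and at most at 3.35 CPM in WT cortex, while Zbtb20 lies at 27.0 to 97.0 CPM and at 157 to 191 CPM.

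The null libraries had the same order of regions in the SST class for Nfib, Nfix, Nfia and Zbtb20. Nfib was at 0 and 1.99 CPM in null cortex and at 18.1 and 13.4 CPM in null hippocampus, and Nfix at 2.61 and 2.13 CPM and at 12.4 and 9.42 CPM. Nfia was at 1.30 and 1.42 CPM (1 and 10 UMIs) and at 4.77 and 3.497 CPM (5 and 39 UMIs). Zbtb20 was at 70.3 and 120 CPM in null cortex and at 24.8 and 33.9 CPM in null hippocampus. In cluster 0 Nfib was at 0 and 8.96 CPM and at 36.0 and 22.8 CPM, and Zbtb20 at 173 and 245 CPM and at 30.3 and 47.3 CPM. The 2 regions did not overlap in any of these. Nfic overlapped, at 87.3 and 32.3 CPM in null cortex and 26.7 and 37.2 CPM in null hippocampus, and so did Nfia in cluster 0, at 0 and 3.98 CPM and at 7.57 and 3.74 CPM.

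With TH cells edgeR called 0 members for region in null SST cells, against 0.0386% of 12942 genes, with 592 genes at an unadjusted p under 0.05, and DESeq2 also called 0, against 0.301%. The log2 changes were 2.15 for Nfib (SE 0.62, adjusted p = 0.409), 2.13 for Nfix (SE 0.59, adjusted p = 0.373), 1.16 for Nfia (SE 0.75, adjusted p = 0.99997) and -1.59 for Zbtb20 (SE 0.60, adjusted p = 0.739). Without a filter on low counts Zbtb20 passed with edgeR (adjusted p = 0.0049), in a fit that called 0.554% of all genes.

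The second comparison asked what loss of Grin1 did within each region. In SST cells with TH cells edgeR called 0 members in cortex, against 0% of 12942 genes (259 with an unadjusted p under 0.05), and 0 in hippocampus, against 0% (433 with an unadjusted p under 0.05). DESeq2 called 0 members in either region, against 0.0232% of genes in cortex and 0.00773% in hippocampus. The null-minus-WT log2 changes of the 5 members lay between -0.62 (Nfix) and 0.34 (Nfia) in cortex and between -0.92 (Nfia) and 0.04 (Nfib) in hippocampus. For Nfix in hippocampus the change was -0.71 (SE 0.45, edgeR adjusted p = 0.999).

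The interaction of genotype and region called 0 members and 0% of genes with edgeR (81 with an unadjusted p under 0.05), and DESeq2 called 0. It was 0.32 for Nfib (SE 0.76), -0.09 for Nfix (SE 0.75), -1.26 for Nfia (SE 0.94) and -0.78 for Zbtb20 (SE 0.75) on the log2 scale, with adjusted p of 0.99999 by edgeR for each. The regional changes of Nfib and Nfix were thus of like size in both genotypes, within standard errors that would also allow a difference of more than 1 on that scale.

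In NGFC the member with the largest change between regions was Zbtb20. It was at 177, 215 and 160 CPM in WT cortex and at 46.3, 91.1 and 65.5 CPM in WT hippocampus. The null libraries with at least 10 NGFC had 105 CPM in cortex and 44.8 and 44.5 CPM in hippocampus. Every cortical library, of either genotype, lay above every hippocampal one.

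Nfib was at 591, 912 and 779 CPM in WT cortex and at 395, 713 and 580 CPM in WT hippocampus, and Nfix at 348, 509 and 547 CPM and at 326, 381 and 442 CPM. Nfia was at 29.6, 57.3 and 41.3 CPM in cortex and at 60.9, 69.7 and 63.5 CPM in hippocampus. The high Nfib and Nfix of this class were thus present in both regions, with overlapping values that were lower in the hippocampal library of every replicate number, while Nfia was higher in every WT hippocampal library. In null libraries with at least 10 NGFC Nfia was at 39.8 CPM in cortex and at 28.9 and 53.7 CPM in hippocampus.

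For region in WT NGFC, edgeR called 0 members, against 0% of 7809 genes (204 with an unadjusted p under 0.05), and DESeq2 called 0, against 0.0512%. Zbtb20 had a log2 change of -1.40 (SE 0.34, edgeR adjusted p = 0.829) and Nfia of 0.63 (SE 0.33, adjusted p = 0.9998). With the replicate block 0 members were called, against 0.0512% of genes, and Zbtb20 had -1.42 (SE 0.24, adjusted p = 0.0346), Nfib -0.42 (SE 0.18, adjusted p = 0.736) and Nfix -0.24 (SE 0.19, adjusted p = 0.952). With the block Zbtb20 fell past the threshold without WT cortex 2 (adjusted p = 0.00871) or WT cortex 3 (0.00352), where 0.228% and 1.28% of all genes were called.

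The difference in Zbtb20 was present within the larger NGFC cluster, cluster 2, where it was -1.73 (SE 0.32, edgeR adjusted p = 0.270, or 0.0196 with the block). The smaller, cluster 16, came in WT hippocampus 2 to 95.9% of the NGFC of that library and in the other WT libraries to between 2.04% and 21.1%. In cells thinned to 1000 UMIs, which left out 34 of 142 NGFC of WT cortex 2, 98 of 517 of WT hippocampus 2, 8 of WT cortex 3 and 13 of WT hippocampus 3, Zbtb20 was seen in a mean of 5.55% of hippocampal and 15.7% of cortical NGFC, and with all UMIs in 20.1% and 52.0%, at median depths of 4314, 1681 and 9025 UMIs and 5997, 2680 and 6109.5 UMIs. PVALB cells, with little Zbtb20, had thinned shares of 2.06% and 2.30%. With all UMIs their shares were 9.62%, 5.49% and 1.28% in WT hippocampus 1, 2 and 3, at median depths of 6478, 2481.5 and 11046 UMIs. In WT cortex 1, 2 and 3 they were 12.9%, 12.5% and 15.1%, at 7692, 4812 and 9358.5 UMIs, so the regions did not overlap in PVALB cells either. The exact permutation test gave p = 0.1 for NGFC, its smallest.

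The mature oligodendrocyte and astrocyte lists did not follow region in NGFC as they did in SST cells. The mature oligodendrocyte list, led by Mobp, summed to 403.9, 19.1 and 358 CPM in cortex and 380, 911 and 133 CPM in hippocampus, with Mog UMIs between 1 and 157. Astrocyte markers summed to 95.2, 86.0 and 73.3 CPM and to 72.8, 85.5 and 109 CPM. Both lists overlapped between regions. Gpr17, of committed oligodendrocyte precursors, was higher in every hippocampal library (3.28, 0 and 7.64 CPM in cortex and 14.6, 39.96 and 19.3 CPM in hippocampus), as was the list of 3 cholinergic markers (0 CPM in each cortical library and 6.62, 6.50 and 2.25 CPM in hippocampus). The part of other cells in the Zbtb20 values was not tested. In null against WT hippocampal NGFC, edgeR called 0 members and 0% of genes (309 with an unadjusted p under 0.05), DESeq2 called 0 members and 0.0104% of genes, and Zbtb20 had a log2 change of -0.61 (SE 0.36, edgeR adjusted p = 0.957). Null cortex 1 had only 6 NGFC, so genotype in cortex was not tested in the fit with all libraries.

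In PVALB cells of WT mice Nfib had the largest change between regions among the 4 members tested. It was at 55.1, 80.3 and 56.2 CPM in WT cortex and at 114, 221 and 97.3 CPM in WT hippocampus, with no overlap. In null cortex Nfib was at 97.2 and 155 CPM and in null hippocampus at 81.1 and 139 CPM, so the null regions overlapped. For region in WT, edgeR called 0 members, against 0.0227% of 8812 genes (370 with an unadjusted p under 0.05), and DESeq2 called 0, against 0.295%. The Nfib log2 change was 1.19 (SE 0.35, edgeR adjusted p = 0.530), and with the replicate block 1.12 (SE 0.21, adjusted p = 0.0118), where 0 members were called against 0.533% of genes.

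With the block Nfib passed, as a rise, without WT cortex 3 (edgeR adjusted p = 0.00053) or WT hippocampus 1 (0.00253), where 1.33% and 0.806% of all genes were called. The make-up of the class differed between regions as well. Cluster 24, led by Plcxd3 and Pthlh, had 312 CPM of Nfib and cluster 1, the Pvalb, Tac1 and Syt2 cells, had 35.0 CPM. Cluster 24 made up 10.8%, 13.3% and 4.73% of PVALB cells in WT cortex and 28.8%, 44.0% and 14.1% in WT hippocampus. Within cluster 1 the log2 change of Nfib was 0.22 (SE 0.35, edgeR adjusted p = 0.9996) and within cluster 24 it was 0.56 (SE 0.30, adjusted p = 0.9998). In cluster 24 Nfib was at 265, 304 and 247 CPM in WT cortex and at 275, 453 and 448 CPM in WT hippocampus, higher in the hippocampal library of every replicate number. The part of the make-up in the difference over the class was not tested.

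Oligodendrocyte markers were higher in hippocampus in PVALB cells too. That list of 7, led by Mobp, summed to 50.5, 136 and 86.5 CPM in cortex and 248, 399 and 348 CPM in hippocampus, and Mog was at 4.59, 25.05 and 18.2 CPM and at 40.9, 90.8 and 62.9 CPM. The NGFC list of 7, led by Hapln1, summed to 219, 162 and 162 CPM and 414, 363 and 197 CPM, and Lamp5 was at 0, 0 and 0.308 CPM and at 20.4, 23.1 and 17.2 CPM. The oligodendrocyte list, Mog and Lamp5 were higher in every hippocampal library, while the NGFC list overlapped between regions. The part of these cells in the Nfib values was not tested.

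Between genotypes the PVALB member with the smallest p was Nfix in cortex, at 38.6, 31.7 and 36.5 CPM in WT and 55.1 and 98.7 CPM in null libraries. In hippocampus it was at 23.4, 33.8 and 24.0 CPM in WT and 24.8 and 26.5 CPM in null libraries. For genotype in PVALB cells edgeR called 0 members and 0% of 9673 genes in cortex (340 with an unadjusted p under 0.05) and 0 members and 0% in hippocampus (311 with an unadjusted p under 0.05), and DESeq2 called 0 members in either, against 0.124% of genes (12) in cortex and 0.0103% (1) in hippocampus. The Nfix change in cortex was 1.21 (SE 0.29, edgeR adjusted p = 0.275), and its interaction with region, -1.30 (SE 0.46), had an edgeR adjusted p of 0.99999. In cortex Nfib (1.04, SE 0.37, edgeR adjusted p = 0.941) and Nfia (1.51, SE 0.65, adjusted p = 0.9996) also had an unadjusted p under 0.05, and neither overlapped between the genotypes. The NGFC list, led by Hapln1, summed to 219, 162 and 162 CPM in WT cortex and 502 and 798 CPM in null cortex. Lamp5 was at 0, 0 and 0.308 CPM and at 0 and 0.300 CPM. The part of other cells in these changes was not tested. With edgeR and with DESeq2 the interaction called 0 members and 0% of genes (104 with an unadjusted p under 0.05 in edgeR). Region within null PVALB cells called 0 members with either tool, against 0.0103% of genes in edgeR (199 with an unadjusted p under 0.05) and 0.093% in DESeq2, with -1.68 for Nfix (SE 0.35, edgeR adjusted p = 0.151).

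The make-up of the class differed between genotypes in cortex as well. Cluster 31, PVALB cells led by Crabp1 and Kit, had 327 CPM of Nfix and made up 7.19%, 1.57% and 2.74% of PVALB cells in WT cortex and 22.2% and 23.0% in null cortex. Within cluster 1, Nfix was at 14.1, 12.9 and 16.8 CPM in WT cortex and at 4.22 and 1.85 CPM in null cortex. The null values were low and came from 19 and 117 cells, and genotype was not tested within clusters. Nfix was thus lower in null cortex inside the main PVALB cluster and higher in null cortex over the class, and the part of the make-up was not tested.

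The sort also held glutamatergic neurons, which were read because ZBTB20 is a known identity factor of the hippocampus. Zbtb20 was at 27.2, 226 and 213 CPM in WT cortex 1, 2 and 3 and at 411 and 949 CPM in WT hippocampus 2 (15 cells) and 3 (72 cells). Nfib was at 111, 76.4 and 105 CPM in cortex and at 617 and 503 CPM in hippocampus. Null cortex 2 had 288 CPM of Zbtb20 and 17.9 CPM of Nfib, and null hippocampus 2 had 1184 CPM and 500.5 CPM. Both genes were higher in each hippocampal library, while Zbtb20 was lower in NGFC and in SST cluster 0, and the difference between classes was not tested. The class joined cluster 19, of shallow cells, and the deeper cluster 21. Cluster 19 held 2, 487 and 16 cells of WT cortex 1, 2 and 3, and 15 and 13 of WT hippocampus 2 and 3. Cluster 21 held 45, 139 and 99 cells, and 0 and 59. The part of this make-up in the regional values was not tested.

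For region in WT glutamatergic cells, edgeR called 1 of 5 members, against 0.577% of 7449 genes, namely Nfib, which rose (log2 change 2.28, SE 0.43, adjusted p = 0.00155). Zbtb20 had a log2 change of 2.09 (SE 0.51, adjusted p = 0.0254), Nfix of 0.58 (SE 0.46, adjusted p = 0.9996) and Nfia of 0.19 (SE 0.52, adjusted p = 0.9996). The median of all genes was -0.08 here, and 0.03 when scaled by library size alone. The interneuron list of 4, led by Gad1, summed to 69.3, 62.9 and 65.5 CPM in cortex and 206 and 115 CPM in hippocampus. Gad1 was at 39.6, 18.9 and 26.2 CPM and at 154 and 55.7 CPM. The NGFC list was lower in hippocampus (532, 669 and 473 CPM, 411 and 427 CPM), as was the SST list (200, 259 and 190 CPM, 103 and 129 CPM). The part of other cells in the Nfib values was not tested. The Nfib call rested on few cells. It was lost with DESeq2 (adjusted p = 0.0142, with 0.0537% of genes called), with the replicate block (0.0189), and without WT cortex 2 (0.0471), WT cortex 3 (0.0117), WT hippocampus 2 (0.0321) or WT hippocampus 3 (0.412), where a lone hippocampal sample is assumed to vary like the other groups.

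Of 11 cortical-identity genes known as targets of ZBTB20 repression, 9 were tested in glutamatergic cells and 7 had negative log2 changes. Those of Sox5 (-0.30) and Tbr1 (-0.41) were small, and Fezf2 (1.41) and Tle4 (1.46) went the other way. Cux1 (54.4, 129 and 122 CPM in cortex, 0 and 11.5 CPM in hippocampus) and Rorb (178, 76.4 and 98.3 CPM, 51.4 and 11.5 CPM) fell, with log2 changes of -3.29 (edgeR adjusted p = 0.00658) and -3.13 (adjusted p = 0.00959). Cux2, at 51.9, 35.1 and 25.1 CPM in cortex, had no UMI in the 2 hippocampal libraries with at least 10 such cells and also fell (adjusted p = 0.00941), at least 6.73-fold lower against a floor of 3 UMIs over both. The median of the list was -2.38 beside -0.08 for all genes tested, and -2.38 with each gene without a hippocampal UMI at that floor. Prox1, the dentate granule cell factor, was at 0, 0.899 and 1.09 CPM in cortex and at 668 and 200 CPM in hippocampus (edgeR adjusted p = 4.02e-11) and rose. Which types of glutamatergic cells each region held was not tested, nor was any part of ZBTB20 in these changes.

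The same lists were read in SST cells with TH cells. Over all genes 0.0417% were called by edgeR and 7.57% had an unadjusted p under 0.05, and with the block 2.59% and 15.6%. Of the cortical-identity genes 6 were tested and 0 called by edgeR, with 2 at an unadjusted p under 0.05, and with the block 1 rose, Zfpm2 (log2 change 1.71, adjusted p = 0.00694). The median of that list was 0.47 beside 0.02 for all genes. Of 10 partners and targets of SOX9 and NFIA in gliogenesis 5 were tested, all with positive log2 changes and a median of 1.19, 0 were called without the block and 3 had an unadjusted p under 0.05. With the block Mmd2 rose (log2 change 2.20, SE 0.26, adjusted p = 0.000179), as did Slc1a3 (2.12, SE 0.43, adjusted p = 0.00981), a glutamate transporter of astrocytes that reached at most 11.4 CPM.

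Mmd2, a known NFIA target, was at 4.94, 3.45 and 3.42 CPM in WT cortex and at 26.4, 16.9 and 15.2 CPM in WT hippocampus, and at 4.85 and 3.35 CPM in null cortex and 23.7 and 12.9 CPM in null hippocampus. It followed the regional order of Nfib, Nfix and Nfia in all 10 libraries. Without TH cells only 2 genes of that list passed the filter on low counts, both with positive changes. Slc1a3, Gfap and Aldh1l1 of that list are also among the astrocyte markers above, whose sum was higher in every WT hippocampal SST library. The part of RNA from other cells in the changes of Mmd2 and the rest of the list was not tested.

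Of 23 transcription factors of the medial ganglionic eminence and of regional interneurons, 22 were tested in SST cells, 12 with positive changes, 0 called without the block and 12 at an unadjusted p under 0.05, against 7.57% of all genes. With the block, which called 2.59% of all genes, 2 rose, Id2 (log2 change 1.73, adjusted p = 0.000185) and Nr2f1 (1.31, adjusted p = 0.00118). Sox6 (-1.13, adjusted p = 0.00336), Bcl11a (-1.20, adjusted p = 0.00131), Bcl11b (-1.12, adjusted p = 0.00411) and Id4 (-2.82, adjusted p = 0.00332) fell. Id2 is also among the NGFC markers above, whose sum was higher in every WT hippocampal SST library, and the part of other cells in its rise was not tested. Of 39 other ZBTB genes 34 were tested, with a median of 0.14 and 0 called by edgeR with or without the block (1 and 3 at an unadjusted p under 0.05). Zbtb20 itself was not called there with or without the block, and its difference from the other ZBTB genes was not tested.

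In OPC and mature oligodendrocytes, the glial classes tested, no member was called for region. Zbtb20 in OPC was at 885, 1094 and 856 CPM in WT cortex and at 534, 822 and 562 CPM in WT hippocampus, with no overlap and a log2 change of -0.40 (SE 0.36, edgeR adjusted p = 0.9996). For region edgeR called 0 members and 0% of 5059 genes in OPC (226 at an unadjusted p under 0.05), where scaling by library size alone moved the median of all genes from 0.03 to -0.15. It called 0 members and 0% of 9468 genes in mature oligodendrocytes (193 at an unadjusted p under 0.05), and DESeq2 called 0 members in both classes, against 0% of genes in OPC and 0.0422% in mature oligodendrocytes. With the replicate block edgeR called 0 members in OPC, against 0.909% of genes, and 0 in mature oligodendrocytes, against 0.951%, with 0 and 1 member at an unadjusted p under 0.05. The largest member value in mature oligodendrocytes was that of Nfic, -0.55 (SE 0.29, edgeR adjusted p = 0.99998).

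For genotype, edgeR called 0 members and 0% of genes in mature oligodendrocytes of cortex, 0 members and 0% in those of hippocampus, and 0 members and 0% in OPC of hippocampus (153, 178 and 193 genes with an unadjusted p under 0.05), with DESeq2 at 0 members in each, against 0%, 0.0292% and 0% of genes. In OPC of hippocampus the log2 changes ran from -0.69 for Nfib to -0.19 for Nfic and Nfix. OPC of cortex were not tested in the fit with all libraries, since null cortex 1 had 2 such cells.

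Promoter sequences are shown for Nfix, Nfia and Zbtb20. The RefSeq promoter table on GRCm38.p6 (250 bases before to 50 bases after each start) held 7 promoters for 4 members, namely Nfia, Nfix, Nfic and Zbtb20, and none for Nfib. The half-site TTGGC was searched on both strands, so also as GCCAA, and 46.7% of all 32851 promoters hold it. Among the members it was in 3 of the 4 Nfix promoters and in no other. The palindrome, TTGGC and GCCAA with 5 bases between them, was in 0 of the 7 and in 0.0365% of all promoters, and a match is a description of the letters only. The Nfia promoter of this table lies before the start given above for the gene, as the annotations differ. Those of Zbtb20, Nfix and Nfic lie inside the spans given above, away from the outer start of each gene. In the sequences, capitals mark the half-site.
Nfix, chr8:84772826-84773125, minus strand: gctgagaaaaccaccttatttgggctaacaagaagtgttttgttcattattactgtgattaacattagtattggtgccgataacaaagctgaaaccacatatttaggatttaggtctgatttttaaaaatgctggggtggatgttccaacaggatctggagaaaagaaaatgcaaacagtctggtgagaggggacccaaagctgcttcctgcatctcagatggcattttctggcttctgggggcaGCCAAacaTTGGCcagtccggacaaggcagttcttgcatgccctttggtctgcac
Nfix, chr8:84773361-84773660, minus strand: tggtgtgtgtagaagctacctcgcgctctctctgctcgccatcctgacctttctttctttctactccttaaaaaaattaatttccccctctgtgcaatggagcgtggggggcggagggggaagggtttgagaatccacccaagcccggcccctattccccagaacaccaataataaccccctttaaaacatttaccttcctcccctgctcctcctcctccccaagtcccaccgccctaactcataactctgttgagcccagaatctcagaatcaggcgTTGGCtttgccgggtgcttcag
Nfia, chr4:97581693-97581992, plus strand, no half-site: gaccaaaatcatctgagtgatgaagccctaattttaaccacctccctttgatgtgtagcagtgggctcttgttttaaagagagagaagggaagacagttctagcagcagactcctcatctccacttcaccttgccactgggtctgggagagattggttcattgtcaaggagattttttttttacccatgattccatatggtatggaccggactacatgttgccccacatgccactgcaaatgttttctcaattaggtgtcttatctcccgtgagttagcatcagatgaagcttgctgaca
Zbtb20, chr16:43247034-43247333, plus strand, no half-site: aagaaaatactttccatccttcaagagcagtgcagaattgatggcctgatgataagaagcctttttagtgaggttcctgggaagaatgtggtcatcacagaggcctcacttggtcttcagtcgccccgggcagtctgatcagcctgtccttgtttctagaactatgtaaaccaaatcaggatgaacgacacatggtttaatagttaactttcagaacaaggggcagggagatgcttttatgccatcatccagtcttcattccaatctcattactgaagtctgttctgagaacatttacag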

How the data were processed

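Cells sorted for TdTomato were profiled by 10x Genomics 3′ RNA sequencing in 10 libraries. Per the labels, the authors used mm10, lengthened each gene by 4 kb at its end, and ran Cell Ranger 2.1.1 (the header of the deposited matrices gives 3.0.2), and the deposited values are counts of UMIs per gene and cell in 4 matrices. Libraries were told apart by barcode suffix, matched to replicates by the cell numbers that the authors state. Of 26987 cells 26201 were kept (200 to 6000 genes, under 30% mitochondrial UMIs).

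Cells were integrated with Seurat 5.3.0 (canonical correlation, 2000 variable features without the members, 25 dimensions, resolution 1.0) into 33 clusters. A cluster took the class with at least 3 markers at 20 CPM or more, its defining marker at 100 CPM or more, and the largest share of its markers. Ties, shallow clusters and a cluster led by Oxt stayed unnamed. These details were set after the clusters were seen, and 30 clusters with 24346 cells were named. Shallow meant more than 3-fold below the median depth with no own marker among the 10 leading genes.

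UMIs were summed over cells by class and library (at least 10 cells) and tested with edgeR 4.0.16 (R 4.3.3; quasi-likelihood, TMM, filterByExpr) and, as an alternative, DESeq2 1.42.0. Genes with adjusted p under 0.01 over all genes tested and a change of 0.1 or more on the natural-log scale were called, and the pipeline was tested on simulated data. Shares were compared by exact permutation. Python 3.11.15 with numpy 2.4.6, pandas 2.3.3, scipy 1.17.1, scanpy 1.11.5 and matplotlib 3.10.9 did the rest. Scrublet (rate 0.06) marked 249 cells as doublets, which were kept, and removed only as an alternative.

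Pairing was checked by correlating deviations from regional means. WT libraries of the same replicate number gave r = 0.785, 0.717 and 0.447 in SST cells, 0.638, 0.639 and 0.407 in PVALB cells and 0.616, 0.514 and 0.236 in NGFC, and with the replicate block the SST count of members called was 3. The members and gene lists were chosen with earlier results of these data known. Named genes were the members, the 3 genes most like each, Grin1, and from each list those that passed the test and otherwise at most 4 per comparison with the smallest p. Other clusters and genes were chosen after their values were seen.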

Additional observations from a re-analysis of the deposited data

Results flagged for a closer look

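The log2 change of Zbtb20 between regions of WT mice was positive in glutamatergic cells and negative in NGFC and OPC. It was called in none of these in the reported edgeR fits, without a block and with all libraries. In glutamatergic cells 2 members passed in edgeR fits with library-size scaling, without the filter on low counts, or with members among the variable features. Every hippocampal library was above every cortical one in glutamatergic cells and below every cortical one in NGFC, and the log2 changes differed by 3.49. Against OPC, where the hippocampal libraries were also below the cortical ones, the difference was 2.50. Neither difference between classes was tested.

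Cluster 30, which met the naming rule of no class, held 162 cells led by Igfbpl1, Neurod1, Cd24a and Sox11 and entered no comparison. Its pooled levels were 3434 CPM for Zbtb20, 1861 CPM for Nfib, 1216 CPM for Nfix and 726 CPM for Nfia, each above the highest mean of any named class. Libraries differed widely, with Zbtb20 at 1646 and 1374 CPM in WT cortex 2 and 3 and at 5619 and 6349 CPM in WT hippocampus 2 and 3. Nfia was at 194 and 210 CPM in these cortical libraries, below the OPC mean of 301 CPM, and at 1189 and 1201 CPM in the hippocampal ones. Which cells these are was not tested.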

How the results depend on the processing

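Of 436 alternative counts of members called, over 18 comparisons, 411 stayed within 1.5 times the reported count. In SST cells with TH cells (region in WT, 0 called) DESeq2 called 2 members, edgeR without a filter on low counts 2 and with the replicate block 3. The alternatives chosen after seeing the data were the block without TH cells (3), the block with a WT library left out, and clusters tested by number. With the block, the count was 2 without WT cortex 1, 5 without WT cortex 2, 3 without WT cortex 3, 2 without WT hippocampus 1, 5 without WT hippocampus 2 and 3 without WT hippocampus 3. With doublets removed 0 were called, Nfia no longer passed the filter on low counts, and 3 of the 4 members tested had an unadjusted p under 0.05. For region in null SST cells the count was 1 without the filter, against 0. In PVALB cells the block gave 1 without WT cortex 3 or WT hippocampus 1, and in NGFC 1 without WT cortex 2 or WT cortex 3, against 0 in each class.

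In glutamatergic cells the reported count of 1 was 2 at an adjusted p threshold of 0.05, where the second member was Zbtb20. It was also 2 with library-size scaling, without the filter (0.563% of all genes called), and with members among the variable features. It was 0 with DESeq2 and with the block, and 0 to 1 over libraries left out in turn. Without WT hippocampus 2 or 3 a lone sample stands for hippocampus and is assumed to vary like the other groups. Of all genes 0.0537% were called with DESeq2 and 0.376% with the block. The causes of these changes in count were not tested.

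Of 411 alternative log2 changes of members, 368 kept their direction and side of the threshold, 37 came to pass it, 6 no longer passed it and 0 changed sign while called. Levels by class moved by less than the spread between libraries in 75 of 75 cases, and shares of cells in 253 of 295. Glutamatergic cells gave no value at 20 cells per sum, with the stricter cell filter or thinned to 1000 UMIs. Thinned to 1000 UMIs, 2 members passed the filter for region in WT SST cells, with 0 called and 0 at an unadjusted p under 0.05. Nfia was seen in 0.354% of hippocampal and 0.196% of cortical thinned SST cells without TH, as means over WT libraries.

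Each group had 2 or 3 libraries, chemistry version went with replicate number, and the make-up of classes by cluster differed between libraries. RNA from other cells was not removed. Levels in sums of cells cannot tell a change per cell from a change in cell subtypes, RNA levels are not protein levels, and binding of the factors was not measured.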
